A study of Mus musculus with 21 samples.

Results

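The genes described here are 10 that store, carry or sense metals: the metallothioneins *Mt1* and *Mt2*, the hepcidin genes *Hamp* and *Hamp2*, the metal transporters *Slc39a14* and *Slc40a1*, the iron uptake pair *Trf* and *Tfrc*, and the ferritin subunits *Fth1* and *Ftl1*. They were chosen by symbol in GENCODE M21 on the mouse genome build GRCm38, by a rule that uses no measured value although earlier results of these data were known when it was written, and are 10 of the 46078 genes in the count table. All 10 had counts in every library and passed the filter on low counts that left 14370 genes to test. In the knockout (KO) mice whose diet held no cysteine both ferritin mRNAs were at about 2.02 and 1.95 times their level in control mice on the same diet, *Hamp* was 3.79 times higher, and *Trf* was 4.08 times lower. *Mt1* and *Mt2* were lowest in control mice on the control diet, where all libraries lay below those of the 5 other groups. No comparison of either gene passed the main test at an adjusted p under 0.05.

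The samples were poly(A) RNA of whole liver, 1 library per mouse as the titles number them, 21 in all. KO mice lack *Cse*, the gene of cystathionine γ-lyase (symbol *Cth*), which makes cysteine from cystathionine. They came from a 129/C57BL/6 background, and the comparison mice carry the label WT although the study's text describes its comparison animals as heterozygous (*Cse*+/-). The control diet (CTR) was made of defined amino acids, and noCys and noTrp were the same diet with cysteine or tryptophan left out and the rest raised in proportion. On the control diet there were 3 WT and 4 KO mice, without cysteine 4 WT and 3 KO mice (KO replicates 1, 3 and 4), and without tryptophan 2 WT and 5 KO mice. Per the study's text all mice, controls included, were calorie-restricted males that were at least 9 weeks old, were held for 3 days on a restricted control diet and were then kept for 2 days on the assigned diet, also restricted. The deletion is in the whole animal and not in liver alone, and KO noCys was the only group without both the enzyme and the dietary supply. The study asked what liver does when cysteine is neither eaten nor made, and used tryptophan removal to set apart what any missing amino acid would do.

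Metallothioneins are small proteins made in large part of cysteine, whose thiols bind zinc and copper; their genes are switched on by zinc through the factor MTF1, by glucocorticoids and in the acute phase response. Hepcidin, a peptide hormone made by hepatocytes, triggers the loss of the iron exporter ferroportin (*Slc40a1*) from cell surfaces, and its gene answers to BMP and SMAD signalling, which reports iron stores, and to IL-6 through STAT3. Transferrin (*Trf*) carries iron in plasma, the transferrin receptor (*Tfrc*) takes it into cells, ferritin stores it, and iron regulatory proteins bind ferritin and *Tfrc* mRNAs to set translation of the first and stability of the second.

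The coding sequences of both metallothioneins are shown because they carry the feature that ties these genes to the missing amino acid. They come from 1 GENCODE M21 transcript of each gene and are written 5′ to 3′ with the cysteine codons (TGC or TGT) in capitals.

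Mt1: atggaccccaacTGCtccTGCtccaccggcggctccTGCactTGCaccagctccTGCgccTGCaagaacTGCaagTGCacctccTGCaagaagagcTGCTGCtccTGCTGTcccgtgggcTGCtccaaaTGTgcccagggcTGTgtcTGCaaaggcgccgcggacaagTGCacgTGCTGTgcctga
Mt2: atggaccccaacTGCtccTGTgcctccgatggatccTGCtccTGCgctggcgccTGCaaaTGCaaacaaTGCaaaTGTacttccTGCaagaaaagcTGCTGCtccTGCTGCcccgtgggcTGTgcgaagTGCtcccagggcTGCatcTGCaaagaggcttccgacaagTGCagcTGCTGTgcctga

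Cysteine took 20 of 61 codons in each, or 32.8%, a share that 99.77% of 21595 protein-coding genes did not exceed, against a median of 2.12%. The 186 bases of the 2 sequences were 79.6% identical. The other genes spanned the range of the genome: *Hamp* had 9 cysteine codons of 83 (10.8%), *Hamp2* 9 of 84 (10.7%), *Trf* 38 of 697 (5.45%), *Slc39a14* 13 of 489 (2.66%), *Slc40a1* 13 of 570 (2.28%), *Fth1* 3 of 182 (1.65%), *Tfrc* 7 of 763 (0.917%) and *Ftl1* 1 of 183 (0.546%).

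The promoters of *Hamp* and *Hamp2* are shown because these neighbouring copies were called in opposite directions in KO noCys against KO CTR. The calls were not kept together in any fit that left out a library. They are the 250 bases before each RefSeq transcription start in GRCm38.p6, on the minus strand at chr7:30944030-30944279 for *Hamp* and chr7:30924182-30924431 for *Hamp2*, written 5′ to 3′ along the gene. The capitals mark the letters of the BMP response element, GGCGCC, where they occur.

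Hamp: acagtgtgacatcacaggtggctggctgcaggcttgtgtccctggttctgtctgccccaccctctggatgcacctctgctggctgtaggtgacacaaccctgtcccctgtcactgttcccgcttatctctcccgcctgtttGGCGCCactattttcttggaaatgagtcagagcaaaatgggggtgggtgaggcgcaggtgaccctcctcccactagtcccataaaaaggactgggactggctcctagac
Hamp2: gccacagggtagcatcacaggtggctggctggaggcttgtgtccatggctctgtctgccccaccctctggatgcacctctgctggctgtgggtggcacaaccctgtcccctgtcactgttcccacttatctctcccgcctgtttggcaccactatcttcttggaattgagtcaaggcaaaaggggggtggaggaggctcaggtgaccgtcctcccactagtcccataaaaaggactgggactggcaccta

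The 2 sequences were 89.7% identical over 253 aligned columns, with 20 differing bases and 6 gap columns. The element stood 109 bases before the start of *Hamp* and was not found in *Hamp2*, where G145A, counted from 1 at the 5′ end of the printed *Hamp* sequence, falls inside it. A STAT site of the letters TTCNNNGAA was found in both, 97 bases before the start of *Hamp* and 94 before that of *Hamp2*. Of 32851 RefSeq windows of 300 bases (250 before to 50 after a start), 11.9% held GGCGCC, among them a window of *Tfrc*, and 8.3% held the STAT letters on either strand. Metal response elements (TGCACNC or TGCGCNC, either strand) were found 3 times in the window of *Mt1*, 4 times in that of *Mt2* and 2 times, overlapping, in 1 of the 2 windows of *Tfrc*, and 25.7% of all windows held at least 1. The antioxidant response element TGACNNNGC was found once, in *Mt2*, and is in 12.4% of all windows. The glucocorticoid half-site AGAACA, in 19% of all windows, was found in *Hamp* and *Hamp2*. Windows were available for 7 of the 10 genes, and a match of letters is not a binding site.

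Total counts per library ran from 8889951 to 27230852, and each value below is in CPM, counts divided by TMM-adjusted library sizes. *Cth* was at 107.8 to 451.7 CPM in WT and at 6.34 to 14.99 CPM in KO libraries, every WT library the higher. In WT CTR replicate 3, 6.22% of counts fell on CT010467.1, a ribosomal RNA gene, against 0.0725% to 0.277% in the others. The 7 hepatocyte markers listed (Alb, Apoa1, Apoa2, Ttr, Fabp1, Cps1 and Hnf4a) were above 0 in every library. Their summed level was 51020 to 72780 CPM in KO noCys, 93550 to 107300 in WT noCys and 87090 to 92850 in KO CTR, and the test used below called 3 of 7 lower and 0 higher in KO noCys when set against WT noCys, and 4 of 7 lower when set against KO CTR. In the first of these comparisons 3 of 5 tested erythroid, 2 of 10 Kupffer cell and 2 of 5 endothelial markers were also lower and none was higher. Lower too were 1 of 5 stellate and fibroblast markers, 1 of 1 tested adipocyte marker and 0 of 3 tested leukocyte markers. Of all genes, 13.3% were lower in the first comparison and 9.50% in the second. The erythroid sum over 7 markers was 138 to 176 CPM in KO noCys, 176 to 351 in WT noCys and 174 to 348 in KO CTR. The part of these markers in the values of the 10 genes was not tested. In bulk tissue, fewer cells of a type and less RNA per cell cannot be told apart. Where nothing else is said, tests are edgeR's quasi-likelihood test over all 6 groups, fold changes are log2 with standard errors, adjusted p-values are Benjamini-Hochberg values over the 14370 genes, and a gene was called under 0.05.

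**Figure D1:**
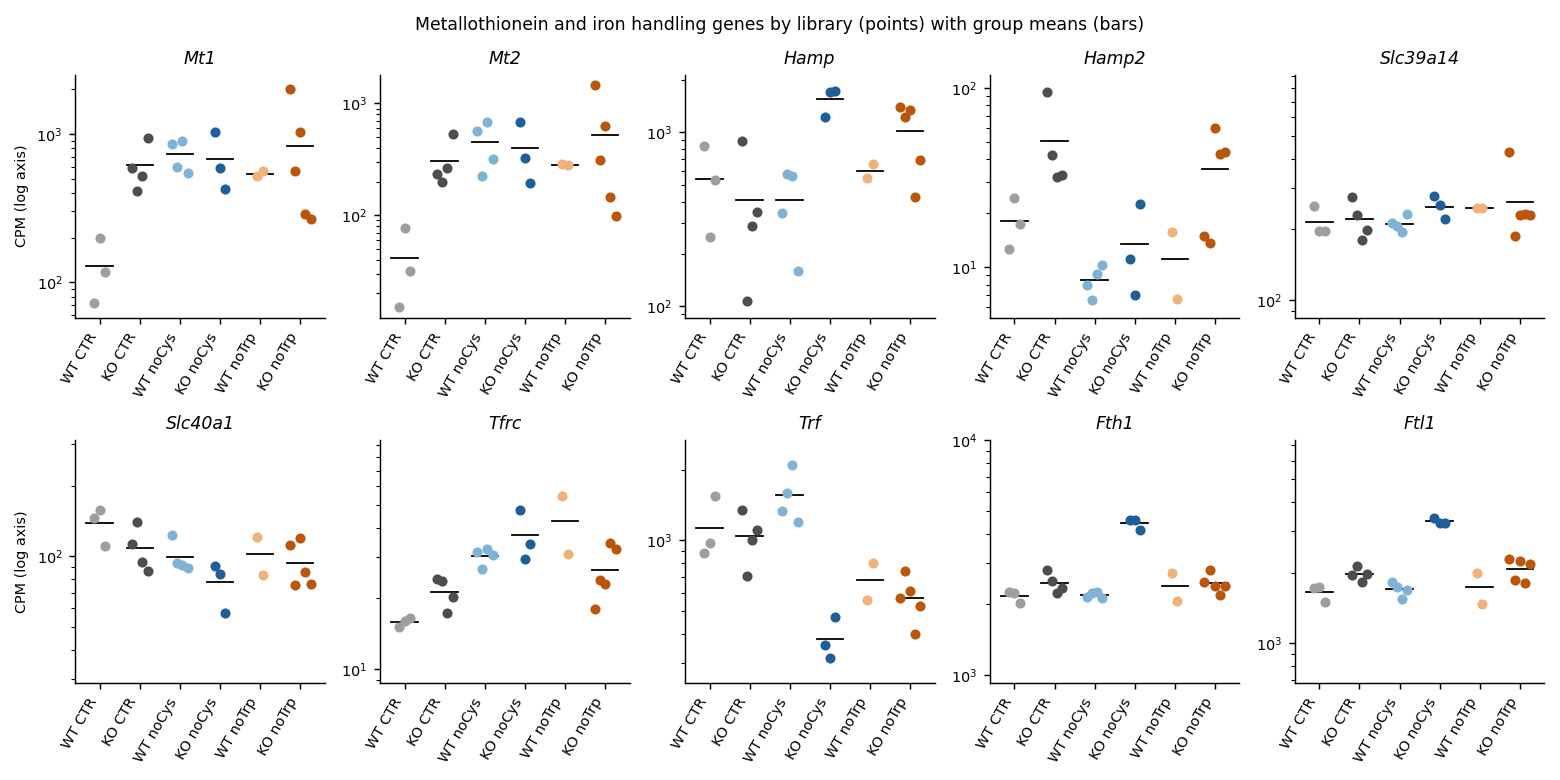
CPM of the 10 genes in each of the 21 libraries (points, log axis) by genotype and diet, with the mean of each group as a bar. The 3 KO noCys libraries lie above the 18 others for Fth1 and Ftl1, and the 3 WT CTR libraries lie below the 18 others for Mt1, Mt2 and Tfrc. The share of all genes that separate in this way was not counted.

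Of the 10 genes, 4 were called in KO noCys against WT noCys, where 28.1% of all genes were called, 14.8% higher and 13.3% lower. In KO noCys against KO CTR 6 were called, where 20.0% of all genes were, 10.5% higher and 9.50% lower. The balance of directions over all genes rests on the scaling: with library totals alone it went from 2125 higher and 1906 lower to 3918 and 962 in the first comparison and from 1513 and 1365 to 2369 and 840 in the second, while the calls of the 10 genes in both comparisons stayed as they were. The called genes were also those whose libraries did not overlap between the groups, 4 and 6 of 10, as held for 37.6% and 28.6% of all genes. These shares are for pairs of groups. The share of all genes for which a group lies apart from all other libraries was not counted. The median fold change over the 10 was 0.26 and 0.28, against -0.015 and 0.0037 over all genes. KO noCys against KO noTrp called 2 of 10 (13.9% of all genes), *Fth1* and *Ftl1*. KO noTrp against KO CTR called 1, *Trf*, which was lower (1.94% of all genes, 0.828% higher and 1.11% lower). WT noTrp against WT CTR called 1, *Tfrc*, which was higher (2.99% of all genes, 1.65% higher and 1.34% lower). With library totals alone these 2 comparisons had 139 higher and 108 lower, and 374 higher and 85 lower, of all genes.

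None of the 10 was called in KO CTR against WT CTR (0.153% of all genes), WT noCys against WT CTR (0.244%) or KO noTrp against WT noTrp (0.174%). Of the 10, 4, 4 and 2 had an unadjusted p under 0.05 in these comparisons, as did 1349, 1974 and 1258 of the 14370 genes. DESeq2 called 2, 3 and 0 of them, and 122, 305 and 117 of all genes. A test of the difference between the effects of cysteine removal in KO and in WT called 3 of 10 (7.26% of all genes). A test of the difference between the genotype effects on the noCys and noTrp diets also called 3 of 10 (6.22%): *Fth1* at 0.98 ± 0.16 (adjusted p = 0.00103), *Ftl1* at 0.70 ± 0.17 (adjusted p = 0.0167) and *Trf* at -1.77 ± 0.39 (adjusted p = 0.0101). Without WT noTrp replicate 1, *Ftl1* (0.45, adjusted p = 0.146) and *Trf* (-1.53, adjusted p = 0.0708) lost the call in the last test. Any difference among the 6 groups was called for *Hamp2*, *Tfrc*, *Trf*, *Fth1* and *Ftl1*, 5 of 10, where 28.6% of all genes were called.

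Ferritin showed the clearest separation. *Fth1* (ENSMUSG00000024661, chr19:9980598-9985098, plus strand) encodes the heavy subunit, which oxidises iron for storage. *Fth1* was at 2243, 2223 and 2014 CPM in WT CTR and at 2803, 2517, 2225 and 2347 CPM in KO CTR. Removing cysteine left it at 2147, 2241, 2251 and 2127 CPM in WT noCys and 4551, 4589.7 and 4127 CPM in KO noCys. Removing tryptophan left it at 2722 and 2063 CPM in WT noTrp and 2483, 2789.6, 2393, 2183 and 2396 CPM in KO noTrp. The 3 KO noCys libraries were all at 4127 CPM or more, and no other library exceeded 2803 CPM.

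The mean of *Fth1* in KO noCys was 4423 ± 257 CPM (SD, n = 3) against 2191 ± 63.4 CPM (SD, n = 4) in WT noCys and 2473 ± 250.3 CPM (SD, n = 4) in KO CTR. It rose by 1.01 ± 0.11 against WT noCys (adjusted p = 1.72e-06), by 0.84 ± 0.11 against KO CTR (adjusted p = 2.52e-05) and by 0.85 ± 0.10 against KO noTrp (adjusted p = 3.18e-05). In the absence of either the genotype or the diet the differences were small: 0.20 ± 0.11 for KO CTR against WT CTR and 0.02 ± 0.11 for WT noCys against WT CTR, neither called. The effect of cysteine removal in KO exceeded that in WT by 0.82 ± 0.16 (adjusted p = 0.00319).

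*Ftl1* (ENSMUSG00000050708, chr7:45457944-45459884, minus strand) encodes the light subunit, which supports the mineral core. In WT CTR, *Ftl1* was at 1721, 1735 and 1505 CPM, and in KO CTR at 1945, 2141, 1821 and 1974 CPM. WT noCys livers held 1828, 1737, 1538 and 1693 CPM and KO noCys livers 3406, 3253 and 3258 CPM. WT noTrp livers held 1996 and 1463 CPM and KO noTrp livers 2295, 1863, 2246, 1811 and 2171 CPM. As for the heavy subunit, the KO noCys libraries stood apart from the rest, at 3253 CPM or more against 2295 CPM at most. *Ftl1* rose by 0.96 ± 0.12 against WT noCys (adjusted p = 5.13e-06), by 0.75 ± 0.12 against KO CTR (adjusted p = 0.000118) and by 0.67 ± 0.11 against KO noTrp (adjusted p = 0.00044). The effect of cysteine removal differed between genotypes by 0.71 ± 0.16 (adjusted p = 0.0119). The ferritin calls in these 4 comparisons held with each library left out in turn, with log2 fold changes of 0.99 to 1.06 for *Fth1* and 0.92 to 0.99 for *Ftl1* in KO noCys against WT noCys.

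The ratio of *Ftl1* to *Fth1* counts, which is not corrected for length, was 0.71 to 0.79 in KO noCys, and the ranges of the other groups lay between 0.67 and 0.94, so that the subunits rose side by side. Of the 61-base windows in *Ftl1* exons, 55.3% also occur in other genes, most often in *Ftl1-ps1*, which itself had 15901 counts in all libraries together; for *Fth1* the share was 1.27%. Levels of *Ftl1* therefore depend on how reads with more than 1 match were counted.

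The genes of iron carriage and uptake moved differently. *Trf* (ENSMUSG00000032554, chr9:103204001-103230444, minus strand) encodes transferrin, which hepatocytes secrete. With the control diet *Trf* was at 885, 972 and 1551 CPM in WT and at 1343, 707, 1005 and 1105 CPM in KO. With no cysteine it was at 1331, 1601, 2096 and 1197 CPM in WT and at 357, 316 and 471 CPM in KO. With no tryptophan it was at 559 and 804 CPM in WT and at 568, 738, 609, 401 and 528 CPM in KO. The KO noCys libraries held the 2 lowest of all 21 values, and every noTrp library was below every WT CTR library. KO noCys and KO noTrp overlapped.

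*Trf* fell by 2.03 ± 0.27 in KO noCys against WT noCys (adjusted p = 2.42e-05) and by 1.45 ± 0.26 against KO CTR (adjusted p = 0.000759). It was also lower in KO noTrp than in KO CTR, at -0.87 ± 0.22 (adjusted p = 0.0467), a call that was kept in only 2 of 9 fits that left out a library (-1.02 to -0.72). WT noTrp against WT CTR was at -0.74 ± 0.31 (adjusted p = 0.208), and WT noCys against WT CTR was at 0.45 ± 0.25 (adjusted p = 0.448), neither of them called. The effect of cysteine removal differed between the genotypes by -1.90 ± 0.36 (adjusted p = 0.00385). The hepatocyte marker sum was also lowest in KO noCys, as given above. It was 74300 to 88100 CPM in KO noTrp and 87090 to 92850 CPM in KO CTR. Its part in these values of *Trf* was not tested. GENCODE M21 places *Gm20425* on the same strand over 63.5% of the exon bases of *Trf*, and *Gm20425* had 0 counts in every library. Of the 61-base windows in *Trf* exons, 57.9% also occur in other genes, most often in *Gm20425*. Levels of *Trf* thus depend on how reads that fall on both genes were counted, which the 0 counts do not settle.

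*Tfrc* (ENSMUSG00000022797, chr16:32608920-32632794, plus strand) encodes the receptor for iron-loaded transferrin. *Tfrc* was at 15.0, 16.0 and 16.5 CPM in WT CTR and at 24.1, 23.6, 17.2 and 20.3 CPM in KO CTR. Removing cysteine left it at 31.5, 26.6, 32.4 and 30.6 CPM in WT noCys and 47.8, 29.4 and 34.1 CPM in KO noCys. Removing tryptophan left it at 54.9 and 30.8 CPM in WT noTrp and 18.0, 23.9, 23.1, 34.3 and 32.3 CPM in KO noTrp. WT CTR was the lowest group, with all 3 libraries below the other 18, and WT noTrp replicate 1 was the highest library. The share of all genes with WT CTR set apart in this way was not counted. *Tfrc* rose by 1.44 ± 0.25 in WT noTrp against WT CTR (adjusted p = 0.00673) and by 0.79 ± 0.21 in KO noCys against KO CTR (adjusted p = 0.0118). Each call was lost when 1 library was left out: the former without WT noTrp replicate 1 (0.96, adjusted p = 0.109) and the latter without KO noCys replicate 1 (0.57, adjusted p = 0.0728). In WT noCys against WT CTR the difference of 0.94 ± 0.22 was not called (adjusted p = 0.0619), and DESeq2 gave an adjusted p of 0.00683. The libraries did not overlap, as held for 16.4% of all genes. The sum over 10 Kupffer cell and macrophage markers was 293 to 321 CPM in WT noTrp and 205 to 352 CPM in KO noTrp. In the other groups it was 115 to 271 CPM, and none of the markers was at 0 in any library. The endothelial sum was 126 to 163 CPM in WT noTrp and 81.5 to 121 CPM in WT CTR. The erythroid sum was highest in WT noTrp replicate 1, at 378 CPM, and was 222 CPM in replicate 2. The part of these sums in the *Tfrc* values was not tested.

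The hepcidin genes parted in KO noCys against KO CTR. *Hamp* (ENSMUSG00000050440, chr7:30942368-30944032, minus strand) encodes hepcidin. In WT CTR, *Hamp* was at 829.8, 251 and 530.2 CPM, and in KO CTR at 897, 107, 290.0 and 347 CPM. WT noCys livers held 344, 577, 562 and 158 CPM and KO noCys livers 1226, 1707 and 1720.2 CPM. WT noTrp livers held 545 and 658 CPM and KO noTrp livers 1392, 1230.0, 1341, 425 and 693 CPM. KO noCys was high in all 3 libraries and lay above every WT noCys and KO CTR library, whereas KO noTrp, at 425 to 1392 CPM, overlapped both KO noCys and KO CTR. KO CTR had the widest spread as a ratio, from 107 to 897 CPM.

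*Hamp* rose by 1.92 ± 0.61 in KO noCys against WT noCys (adjusted p = 0.0292) and by 1.92 ± 0.61 against KO CTR (adjusted p = 0.0382). Against WT noCys the call was kept in 3 of 7 fits that left out 1 library (1.65 to 2.13) and was lost without WT noCys replicate 1 or 4 and without KO noCys replicate 3 or 4. Against KO CTR it was kept in 2 of 7 (1.60 to 2.65), without KO CTR replicate 1 or KO noCys replicate 1. KO noTrp against KO CTR was at 1.31 ± 0.55 (adjusted p = 0.241), and KO noCys against KO noTrp at 0.61 ± 0.58 (adjusted p = 0.524), so that a difference between the depleted diets in KO was not shown. The genotype effect without cysteine exceeded that with the control diet by 2.31 ± 0.86, which was not called (adjusted p = 0.119). Both of the differences that rest on KO CTR moved with its replicate 1: without it KO noTrp against KO CTR was at 2.04, still not called, and the difference between the genotype effects at 3.04, which was called (adjusted p = 0.0338). Over all libraries left out in turn they ran from 0.99 to 2.04 and from 1.84 to 3.04.

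*Hamp2* (ENSMUSG00000056978, chr7:30922372-30924681, minus strand) is a neighbouring copy of *Hamp* at far lower counts. With the control diet *Hamp2* was at 12.7, 24.3 and 17.4 CPM in WT and at 95.2, 42.3, 32.0 and 32.9 CPM in KO. With no cysteine it was at 7.94, 6.53, 9.21 and 10.3 CPM in WT and at 11.1, 6.96 and 22.5 CPM in KO. With no tryptophan it was at 15.7 and 6.65 CPM in WT and at 15.0, 13.6, 60.1, 43.1 and 43.9 CPM in KO. It was highest in KO CTR, where replicate 1 stood far above the others, and had its lowest mean in WT noCys, where all 4 libraries were below all of WT CTR. *Hamp2* fell by 1.91 ± 0.58 in KO noCys against KO CTR (adjusted p = 0.0299), the opposite direction to *Hamp* in the same libraries. That call was kept in 4 of 7 fits with a library left out (-2.53 to -1.41) and lost without KO CTR replicate 1 or KO noCys replicate 1 or 3. Against WT noCys, *Hamp2* in KO noCys was at 0.65 ± 0.58 (adjusted p = 0.427), the same sign as *Hamp*. WT noCys against WT CTR was at -1.09 ± 0.58 (adjusted p = 0.43). The effect of cysteine removal on *Hamp2* differed between genotypes by -0.82 ± 0.81 (adjusted p = 0.595). None of these was called. The larger values in KO, 1.47 ± 0.57 against WT on the control diet and 1.65 ± 0.66 on the diet without tryptophan, had unadjusted p-values of 0.0205 and 0.0249 and were not called.

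Counted as *Hamp2* reads per *Hamp* read, the ratio was 0.095 to 0.39 in KO CTR and 0.0041 to 0.013 in KO noCys, ranges that did not overlap. *Hamp* and *Hamp2* share 10% and 13% of their 61-base windows with other genes, for *Hamp* with *Hamp2* alone, so that most windows were unique to each.

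**Figure D2:**
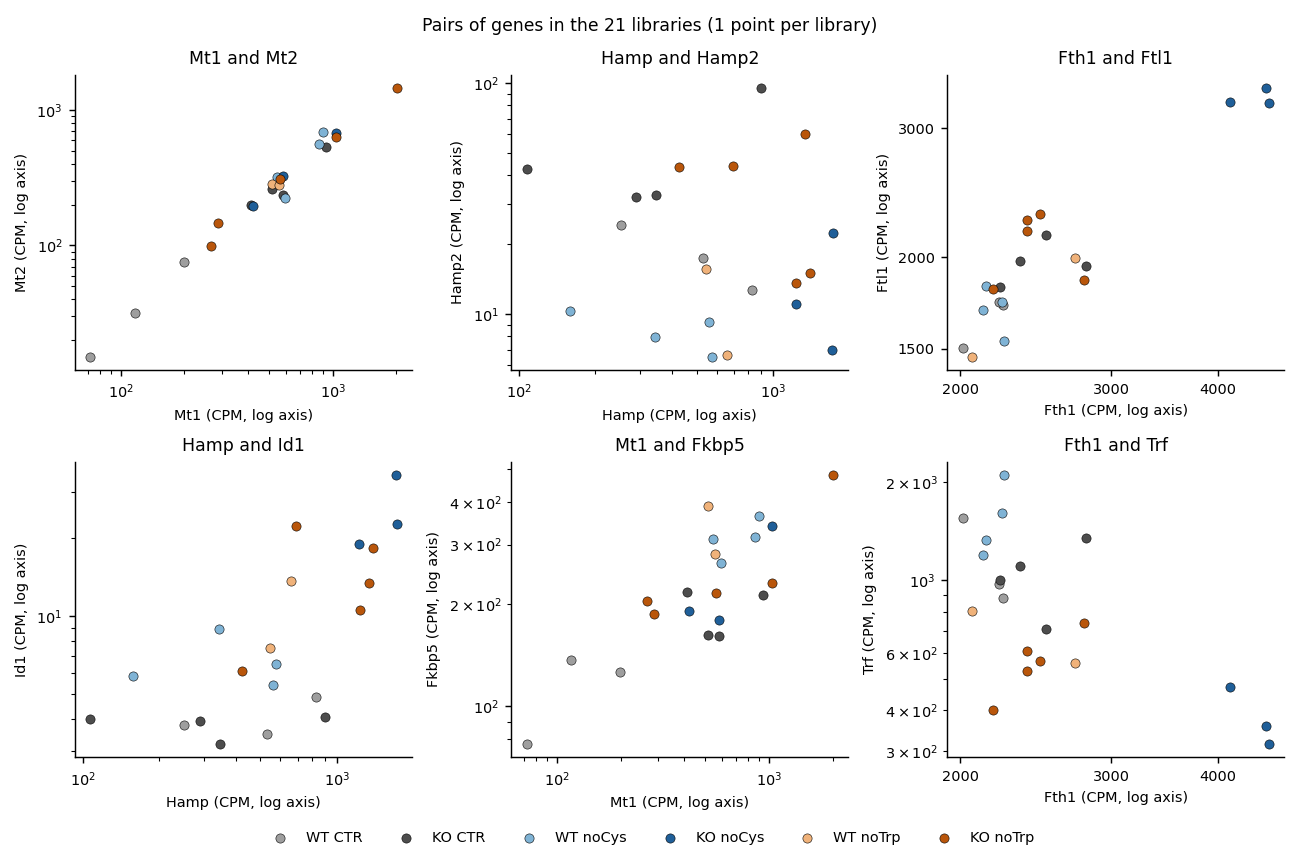
Pairs of genes in the 21 libraries, 1 point per library coloured by group, both axes in CPM on a log scale. Mt1 and Mt2 rise together over all groups, Hamp and Hamp2 do not, the 3 KO noCys libraries stand apart in ferritin, and Hamp and Id1 are both high in KO noCys.

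Neither transporter was called in any comparison. *Slc39a14* (ENSMUSG00000022094, chr14:70303469-70351425, minus strand) encodes ZIP14, which brings zinc, manganese and iron not bound to transferrin into hepatocytes. It lay between 180 and 428 CPM over all 21 libraries, with group means of 211 to 261 CPM. Its largest difference was 0.24 ± 0.20 in KO noCys against WT noCys (adjusted p = 0.39). KO noTrp replicate 1, at 428 CPM, was the highest library, and the next was at 276 CPM.

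*Slc40a1* (ENSMUSG00000025993, chr1:45908068-45926523, minus strand) encodes ferroportin. *Slc40a1* was at 146, 158 and 110.2 CPM in WT CTR and at 113, 139.7, 94.2 and 86.5 CPM in KO CTR. Removing cysteine left it at 123, 93.3, 91.8 and 89.0 CPM in WT noCys and 90.6, 84.1 and 57.1 CPM in KO noCys. Removing tryptophan left it at 121 and 83.5 CPM in WT noTrp and 112, 75.7, 119, 86.0 and 76.4 CPM in KO noTrp. The mean was highest in WT CTR, 138 ± 24.8 CPM (SD, n = 3), and lowest in KO noCys, 77.3 ± 17.7 CPM (SD, n = 3). No comparison was called, with -0.49 ± 0.21 in KO noCys against KO CTR (adjusted p = 0.108) and -0.36 ± 0.21 against WT noCys (adjusted p = 0.209). With limma-voom and sample quality weights these came to -0.52 (adjusted p = 0.0492) and -0.50 (adjusted p = 0.0429). By the main test WT noCys against WT CTR was at -0.48 ± 0.21 (adjusted p = 0.313). The effect of cysteine removal differed between the genotypes by -0.016 ± 0.30 (adjusted p = 0.984).

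The metallothioneins showed another pattern, set by WT CTR. *Mt1* (ENSMUSG00000031765, chr8:94179082-94180327, plus strand) and *Mt2* (ENSMUSG00000031762, chr8:94172664-94173568, plus strand) lie beside each other. In WT CTR, *Mt1* was at 72.1, 199 and 117 CPM, and in KO CTR at 584, 413, 517 and 936 CPM. WT noCys livers held 860.2, 596, 901 and 548 CPM and KO noCys livers 1034, 585 and 422 CPM. WT noTrp livers held 518 and 558 CPM and KO noTrp livers 2008, 563, 1035, 287 and 266 CPM. The 3 WT CTR libraries were below all 18 others, of which the lowest was at 266 CPM. KO noTrp spread most, over both the highest library of the 21 and the lowest outside WT CTR.

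With the control diet *Mt2* was at 15.1, 76.1 and 31.9 CPM in WT and at 234, 198, 262 and 535 CPM in KO. With no cysteine it was at 564, 225, 684 and 318 CPM in WT and at 679, 326 and 194 CPM in KO. With no tryptophan it was at 284 and 281 CPM in WT and at 1449, 311, 629, 146 and 99.2 CPM in KO. WT CTR was again below every other library, and the same KO noTrp replicate was highest. The count ratio of *Mt2* to *Mt1* was 0.21 to 0.38 in WT CTR and 0.37 to 0.76 over the other groups.

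Without the enzyme but with dietary cysteine, *Mt1* was higher by 2.24 ± 0.64 (adjusted p = 0.22) and *Mt2* by 2.89 ± 0.89 (adjusted p = 0.256) in KO CTR than in WT CTR. Without dietary cysteine but with the enzyme, WT noCys against WT CTR, the differences were 2.49 ± 0.65 (adjusted p = 0.0914) and 3.44 ± 0.92 (adjusted p = 0.0999). Without tryptophan in WT they were 2.06 ± 0.70 (adjusted p = 0.129) and 2.77 ± 0.97 (adjusted p = 0.139). None of these 6 passed the test, and the 3 comparisons share the same 3 WT CTR libraries. Of all genes, 10.9%, 16.4% and 30.6% had libraries that did not overlap in these comparisons, in that order.

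These calls changed with the test and its options. DESeq2 called both genes in KO CTR against WT CTR (*Mt1* 2.24, adjusted p = 0.029, and *Mt2* 2.90, adjusted p = 0.0323) and in WT noCys against WT CTR (*Mt1* 2.48, adjusted p = 0.00748, and *Mt2* 3.44, adjusted p = 0.00363). limma-voom with quality weights called them in the same comparisons, at adjusted p-values between 0.00633 and 0.039. In WT noCys against WT CTR, edgeR also called *Mt1* without the robust option (adjusted p = 0.0497) and with only those groups in the fit (adjusted p = 0.0423). With 1 library left out, none was called. The values of *Mt1* then ran from 1.96 to 2.70 in KO CTR, 2.20 to 2.94 in WT noCys and 1.77 to 2.51 in WT noTrp, and those of *Mt2* from 2.49 to 3.71, 3.04 to 4.25 and 2.39 to 3.59, each highest without WT CTR replicate 2.

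Where cysteine was neither eaten nor made, the metallothioneins did not separate from WT on the same diet: KO noCys against WT noCys was at -0.10 ± 0.59 for *Mt1* (adjusted p = 0.921) and -0.17 ± 0.79 for *Mt2* (adjusted p = 0.898). These errors leave room for differences of either sign. The effect of cysteine removal was smaller in KO than in WT by -2.34 ± 0.86 for *Mt1* (adjusted p = 0.116) and -3.06 ± 1.18 for *Mt2* (adjusted p = 0.132), not called here, although limma-voom called both at adjusted p-values of 0.00868 and 0.0123. Over 8 other settings, limma-voom among them, *Mt1* was called in 2 and *Mt2* in 1. An antisense gene, *Gm45774*, covers 73.5% of the exon bases of *Mt2*, and since the strand setting of the counting is not given in the sources used here, the levels of *Mt2* carry that uncertainty while *Mt1* has no overlapping gene.

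**Figure D3:**
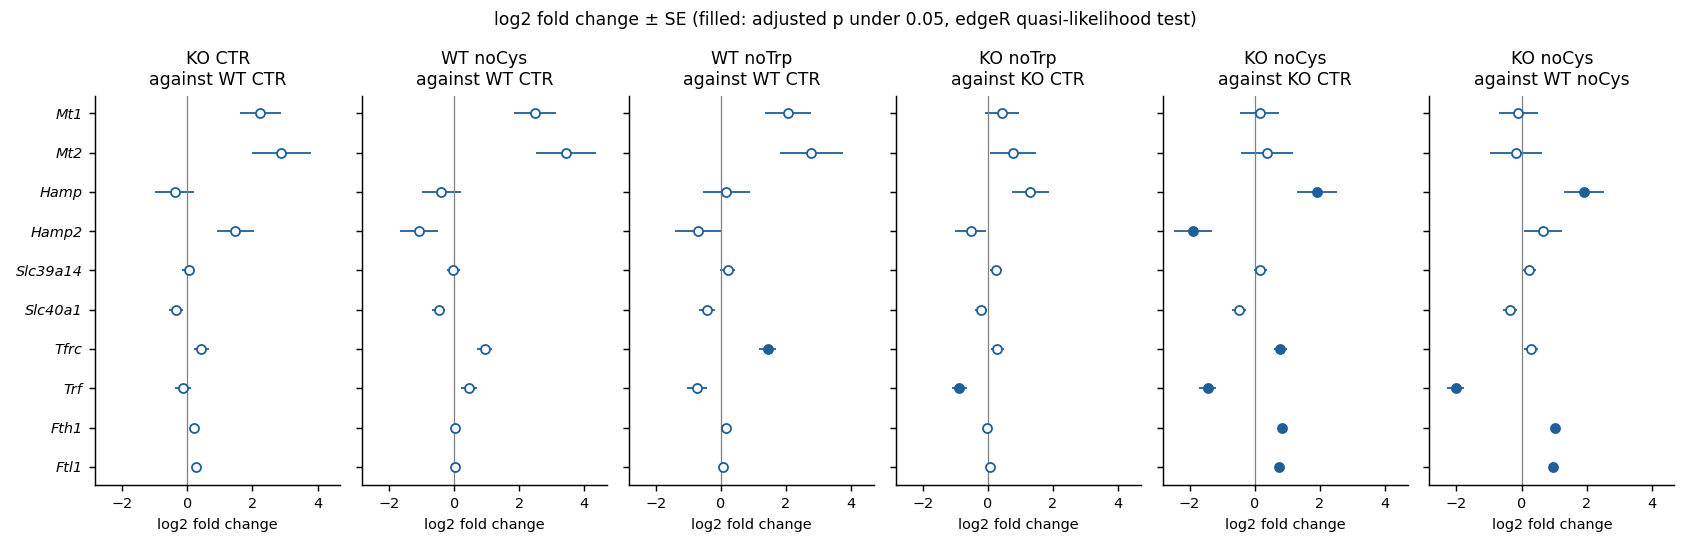
log2 fold change (points) with its standard error (bars) for the 10 genes in 6 comparisons, filled where the adjusted p was under 0.05. Filled points are most frequent in the 2 right panels, which hold KO noCys, and the metallothioneins are far to the right, unfilled, in the 3 left panels.

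Around hepcidin, the list of 20 genes of BMP, SMAD and HFE control had 3 higher and 2 lower in KO noCys against WT noCys, near the 14.8% and 13.3% of all genes. The count of higher genes was 1 to 4 with a library left out, and 1 without WT noCys replicate 3 or 4 or KO noCys replicate 3. *Id1*, a direct target of BMP signalling, was at 8.87, 6.53, 5.41 and 5.84 CPM in WT noCys, 18.9, 34.9 and 22.7 CPM in KO noCys, 4.07, 4.0, 3.94 and 3.2 CPM in KO CTR and 18.3, 10.6, 13.3, 6.13 and 22.2 CPM in KO noTrp. It was higher in every KO noCys library than in every WT noCys and KO CTR library, as *Hamp* was. *Id1* rose by 1.94 ± 0.32 against WT noCys (adjusted p = 0.000214) and by 2.75 ± 0.33 against KO CTR (adjusted p = 1.76e-05).

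*Atoh8*, a transcription factor of the same pathway, rose by 0.61 ± 0.21 against WT noCys (adjusted p = 0.0375), a call lost in 5 of 7 fits with a library left out. Against KO CTR, 5 of 20 were higher and 1 lower (10.5% and 9.50% of all genes), among them the pathway inhibitors *Smad6* at 1.30 ± 0.26 (adjusted p = 0.00126) and *Smad7* at 0.98 ± 0.28 (adjusted p = 0.0206). Without KO CTR replicate 4 or KO noCys replicate 3 or 4, *Smad7* lost its call (0.82 to 0.86) and 3 of the 20 were higher, and the count of lower genes ran from 0 to 2. The ligand gene *Bmp2* fell by 0.93 ± 0.18 against WT noCys (adjusted p = 0.000782), and *Bmpr2*, a BMP receptor, by 0.43 ± 0.11 (adjusted p = 0.00429). *Bmp6*, the ligand that reports liver iron, was at -0.31 ± 0.37 (adjusted p = 0.554), *Tfr2*, a sensor of transferrin iron, at -0.29 ± 0.13 (adjusted p = 0.112), and *Tmprss6*, a protease that restrains hepcidin, at -0.29 ± 0.12 (adjusted p = 0.0804). KO noTrp against KO CTR had 2 higher and 0 lower of the 20 (0.828% and 1.11% of all genes), *Id1* at 1.89 ± 0.31 (adjusted p = 0.00277) and *Smad6* at 1.15 ± 0.23 (adjusted p = 0.0124), the latter lost without KO CTR replicate 1.

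Of 19 acute phase genes, which like *Hamp* answer to IL-6 and STAT3, 1 was higher, 10 were lower and 8 were not called in KO noCys against WT noCys, where 13.3% of all genes were lower. *Saa1*, a serum amyloid, was at 4780.0, 1121, 486 and 179.8 CPM in WT noCys and 45.1, 11.2 and 27.2 CPM in KO noCys, and fell by 5.90 ± 1.47 (adjusted p = 0.00757). The other serum amyloids *Saa2* and *Saa3* fell by 7.60 ± 1.72 (adjusted p = 0.00409) and 3.97 ± 0.92 (adjusted p = 0.00453), and *Orm2*, an orosomucoid, by 4.98 ± 0.99 (adjusted p = 0.00167). WT noCys replicate 1 was the highest WT noCys library for all 4, and without it they were at -4.44, -5.38, -2.11 and -3.67, in the order given, all still called. The gene that was higher, *Apcs*, encodes serum amyloid P and rose by 1.83 ± 0.41 (adjusted p = 0.00365), a call kept in all 7 fits with a library left out. Against KO CTR, 1 was higher and 3 were lower (10.5% and 9.50% of all genes), and the count of lower genes was 1 without KO CTR replicate 3 or 4 or KO noCys replicate 3 or 4, and otherwise 2 to 4.

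Among 14 tested genes of cellular iron regulation and transport, 2 were higher and 1 lower in KO noCys against WT noCys, a smaller share than the 28.1% of all genes called. *Pcbp1*, an iron chaperone that delivers iron to ferritin, rose by 0.42 ± 0.10 (adjusted p = 0.00367), and *Slc25a28*, a mitochondrial iron importer, by 0.42 ± 0.11 (adjusted p = 0.0058). *Steap3*, the reductase that acts beside *Tfrc* in endosomes, fell by 0.36 ± 0.14 (adjusted p = 0.0498), a call kept in only 1 of 7 fits with a library left out (-0.47 to -0.30) and in 4 of 8 other settings. The iron regulatory protein genes *Aco1* and *Ireb2* were at -0.02 ± 0.13 (adjusted p = 0.908) and -0.10 ± 0.13 (adjusted p = 0.598), and *Ncoa4*, which takes ferritin to lysosomes, at 0.21 ± 0.48 (adjusted p = 0.776).

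Of 17 genes of haem synthesis, breakdown and salvage, 4 were higher and 1 lower in that comparison (28.1% of all genes called), and 5 and 2 against KO CTR (20.0%). With a library left out the counts against KO CTR were 3 to 6 higher and 0 to 3 lower, the fewest without KO noCys replicate 3. *Slc48a1*, which exports haem from lysosomes, was at 114, 126 and 102 CPM in KO noCys and at 50.1, 52.5, 45.5 and 51.1 CPM in WT noCys. Its 3 KO noCys libraries were above every other library, and it rose by 1.19 ± 0.08 (adjusted p = 5.95e-09). The synthesis gene *Uros* rose by 0.77 ± 0.12 (adjusted p = 0.000116), and *Blvrb*, a biliverdin reductase, by 0.70 ± 0.11 (adjusted p = 8.71e-05). *Hmox1*, the inducible haem oxygenase that frees iron, was at 0.01 ± 0.28 (adjusted p = 0.99).

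Around the metallothioneins, 3 of 18 tested zinc genes were higher and 2 lower in KO noCys against WT noCys, a share near the 14.8% and 13.3% of all genes. The zinc importer gene *Slc39a4* fell by 0.96 ± 0.15 (adjusted p = 0.000109) and *Slc39a1*, of the same family, by 0.46 ± 0.10 (adjusted p = 0.0017). Other family members, *Slc39a13* and *Slc39a3*, rose by 0.58 ± 0.14 (adjusted p = 0.00351) and 0.50 ± 0.12 (adjusted p = 0.0036). *Mtf1*, the zinc-sensing factor, was at -0.21 ± 0.14 (adjusted p = 0.288), and *Slc30a1*, a zinc exporter that MTF1 also switches on, at -0.11 ± 0.14 (adjusted p = 0.57). In KO CTR, WT noCys and WT noTrp against WT CTR 0 of the 18 were called, where 0.153%, 0.244% and 2.99% of all genes were.

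In the copper handling list every called gene was lower, with 0 higher and 5 lower of 10 in KO noCys against WT noCys, and likewise 0 and 5 against KO CTR, where 13.3% and 9.50% of all genes were lower. *Cp*, the plasma ferroxidase ceruloplasmin, fell by 0.73 ± 0.13 (adjusted p = 0.000406), *Slc31a1*, the copper importer CTR1, by 0.51 ± 0.10 (adjusted p = 0.000679), and *Sod1*, superoxide dismutase, by 0.48 ± 0.10 (adjusted p = 0.00151). *Commd1*, which takes part in copper export, fell by 0.56 ± 0.15 (adjusted p = 0.00777). With each library left out the count of lower genes was 5 in all 7 fits against WT noCys, and against KO CTR 3 to 6, with 3 without KO noCys replicate 3. Scaled by library totals alone, a setting that shifts the median of all genes by 0.20 in this comparison, *Commd1* (-0.34), *Sod1* (-0.27) and *Ccs* (-0.27), the copper chaperone of superoxide dismutase, remained below 0 but lost the call, which left 2 of the 5.

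Of 12 genes of the glucocorticoid and fasting response, 0 were higher and 5 lower in KO noCys against WT noCys, where 13.3% of all genes were lower, and 0 were called in KO noCys against KO CTR. The count of 5 became 2 without KO noCys replicate 3 and 3 without KO noCys replicate 4. Against KO CTR, 0 were higher and 0 to 2 lower with a library left out. *Dusp1*, a phosphatase gene that glucocorticoids switch on, fell by 1.82 ± 0.48 (adjusted p = 0.00986) and *Tsc22d3*, which encodes GILZ, by 1.09 ± 0.34 (adjusted p = 0.0232). With a library left out these calls were kept in 6 of 7 and in 4 of 7 fits, in that order. *Pck1*, of gluconeogenesis, fell by 0.64 ± 0.15 (adjusted p = 0.00329) and the clock gene *Per1* by 0.52 ± 0.13 (adjusted p = 0.00415). In WT noTrp against WT CTR 3 were higher and 0 lower (1.65% and 1.34% of all genes): *Igfbp1* at 3.87 ± 0.98 (adjusted p = 0.0445), *Dusp1* at 2.52 ± 0.54 (adjusted p = 0.0225) and *Fkbp5*. Each of these 3 calls was kept in only 1 of 5 fits with a library left out, that without WT noTrp replicate 2. Without WT noTrp replicate 1, *Igfbp1* was at 1.49 and *Dusp1* at 1.41.

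*Fkbp5*, a standard readout of glucocorticoid action, was at 77.6, 126 and 137 CPM in WT CTR and at 161 to 480 CPM in the 18 other libraries, again with no overlap. Its fold change was 1.56 ± 0.36 in WT noTrp against WT CTR (adjusted p = 0.0259) and 1.46 ± 0.32 in WT noCys against WT CTR (adjusted p = 0.0592). In KO CTR against WT CTR it was 0.73 ± 0.31 (adjusted p = 0.453). How many of all genes had WT CTR apart from all other libraries was not counted.

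In KO noCys against WT noCys, where the median log2 fold change of all genes was -0.015, it was -0.57 for the acute phase genes, -0.46 for the glucocorticoid and fasting genes, -0.36 for copper and -0.11 for zinc. Against KO CTR the medians of the acute phase and the glucocorticoid lists were -0.32 and -0.077, and in WT noCys against WT CTR they were 0.78 and 1.16. The medians of the iron, hepcidin control and haem lists in KO noCys against WT noCys were -0.031, -0.00048 and 0.0059.

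**Figure D4:**
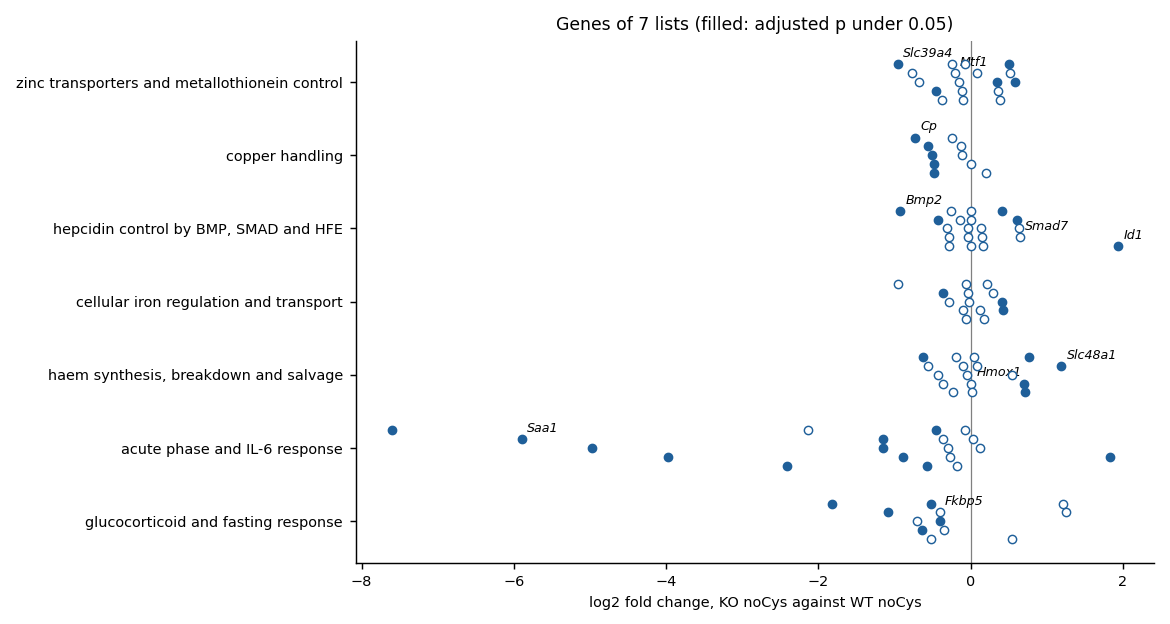
log2 fold change in KO noCys against WT noCys for each tested gene of 7 lists, 1 point per gene, filled where the adjusted p was under 0.05. The called copper and glucocorticoid genes all lie left of 0, the acute phase list has the longest left tail, and Id1 and Slc48a1 are the rightmost called genes of their lists.

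The genes whose centred log2 profiles over the 21 libraries lay closest to the mean profile of *Mt1* and *Mt2*, out of 9074 compared, were *Orm3* (root-mean-square difference 0.768), *Plin4* (0.789), *Fkbp5* (0.844), *Map3k6* (0.913) and *Got1* (0.918); the profile itself had a root-mean-square of 1.27. For *Hamp*, with 1.07, they were *Odc1* (0.77), *Id1* (0.804), *Tagap1* (0.818), *Hspa8* (0.828) and *Abcc3* (0.845). The distances are large beside the profiles, so that likeness is loose in both cases.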

How the data were processed

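Poly(A) RNA of 21 mouse livers was sequenced by the authors as pairs of 61-base reads. Per the labels, reads were aligned to GRCm38 with HISAT2 2.1.0 and counted with HTSeq 0.11.0. The deposited table holds raw counts per Ensembl gene, with no normalization. The annotation release and strand setting are not given in the sources used here. Groups came from sample titles, and 1 column that matched no sample was not used. GENCODE M21 gave symbols and coordinates for 45143 of 46078 identifiers, and the 935 others held 0.071% of counts. Every row carried an Ensembl gene identifier (0 exceptions).

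Tests used edgeR 4.0.16 (R 4.3.3): filterByExpr (minimum count 10, minimum total 15), TMM (factors 0.883 to 1.14), and quasi-likelihood fits with robust dispersions over 6 groups of 2 to 5 mice. Tests were two-sided and called at an adjusted p under 0.05. The fit was tested on simulated data. Any 2 libraries of a group differed beyond sampling noise (chi-square per gene 13.1 to 151). Total counts were 8889951 to 27230852 per library, and errors come from the spread between mice.

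The members and gene lists were chosen with earlier results of these data known. Named were all 10 members, the 4 called genes per list with the largest fold change in KO noCys against WT noCys, some of the 3 largest per list elsewhere, and some fixed genes such as *Mtf1*, *Hmox1* and *Fkbp5*. A gene that this rule would name is not reported here. Hjv, in the hepcidin list, carries the symbol *Hfe2* in GENCODE M21. Alternatives were DESeq2 1.42.0, limma-voom (limma 3.58.1) with quality weights, RLE factors, library totals, no filter, fits of 2 groups at a time (or of the groups in the contrast), replicate number as a block, and each library left out. Fits without the robust option, and list counts with libraries left out, were added after seeing the data. Sequences came from GENCODE M21 transcripts and RefSeq promoter windows.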

Additional observations from a re-analysis of the deposited data

Results flagged for a closer look

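In groups of 4 or 5 libraries, 30 gene and group combinations were screened for a single library far from the rest by Dixon's criterion, which chance alone meets in about 1 of 20, and 3 met it. *Hamp2* in KO CTR replicate 1 was at 95.2 CPM, with the nearest other replicate at 42.3 and the farthest at 32.0 CPM; without that library the fall of *Hamp2* in KO noCys against KO CTR was -1.41 and was not called (adjusted p = 0.0935). *Slc39a14* in KO noTrp replicate 1 was at 427.6 CPM, with the others between 188 and 232 CPM. That library also had the highest *Mt1* and *Mt2* of all 21. *Slc40a1* in WT noCys replicate 1 was at 122.9 CPM, with the others between 89.0 and 93.3 CPM.

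By a test of the difference itself, KO and WT responded differently to the loss of dietary cysteine for 3 of the 10 genes: *Trf* at -1.90, *Fth1* at 0.82 and *Ftl1* at 0.71. The effect of the genotype differed between the diets without cysteine and without tryptophan for the same genes, *Trf* at -1.77, *Fth1* at 0.98 and *Ftl1* at 0.70. All are log2 values with adjusted p under 0.05.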

How the results depend on the processing

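Of the counts of members called, 167 values under other settings stayed within 1.5 times the main count and 26 did not. In KO CTR against WT CTR, 0 members were called here, 2 by DESeq2 and 2 by limma-voom. In WT noCys against WT CTR, with 0 here, 3 were called by DESeq2, 3 by limma-voom, 3 with only the groups compared and 1 (*Mt1*) without robust dispersions. The call of *Trf* in KO noTrp against KO CTR (1 member) went to 0 with library totals alone, with no filter on low counts, with only the groups compared and with the replicate block, and to 0 or 1 with a library left out. The 1 member in WT noTrp against WT CTR became 0 with limma-voom and with only the groups compared, and 0 to 1 with a library left out. The test of cysteine removal between genotypes called 6 members with limma-voom, 3 here. The omnibus test called 9 with DESeq2, 9 with limma-voom and 8 without robust dispersions, 5 here. With a library left out, KO noTrp against WT noTrp had 0 to 1 (1 without WT noTrp replicate 2, *Tfrc* at -1.07), and the second test of differences had 1 to 4 (1 without WT noTrp replicate 1). KO noCys against WT noCys had 3 to 4, KO noCys against KO CTR 4 to 5, KO noCys against KO noTrp 2 throughout, and the first test of differences 3 to 4. No called member changed sign in any setting. The cause of these changes was not tested.

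Without a filter, *Hamp* lost its call against WT noCys (adjusted p = 0.0523). Against KO CTR, *Hamp* and *Hamp2* lost theirs without a filter (adjusted p = 0.0733 and 0.0589) and with only the groups compared (0.121 and 0.0891). Library totals alone shifted the median of all genes by 0.20 in KO noCys against WT noCys and 0.13 against KO CTR. Same-numbered libraries correlated at -0.092 to 0.015 between KO noCys and WT noCys and at -0.348 to 0.348 over all comparisons, the highest in KO noTrp against WT noTrp, which has 2 pairs (0.124 and 0.348). In no comparison with at least 3 pairs did every pair exceed 0.1, and the numbers were not taken to pair the samples. Of the members' calls, the replicate block ended that of *Trf* in KO noTrp against KO CTR (adjusted p = 0.109) and changed no other. With 2 libraries in WT noTrp, fits that left out 1 assumed that the other varied like the rest.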
